A study of Mus musculus with 8 samples.

Results

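The Hippo pathway effector Yap1 and 9 related genes were followed cell by cell in the pancreatic ductal adenocarcinomas of KPC mice: its paralog Wwtr1, the DNA-binding partner Tead1, the target genes Ctgf, Cyr61 and Ankrd1, the Hippo pathway genes Amotl2 and Lats2, and the chromosomal neighbours Birc2 and Birc3. The members were chosen by symbol, as 10 of the 27775 gene rows of both count tables, after earlier results of these data were known. Raised Yap1, Birc2 and Birc3 UMIs in some of the carcinoma cells had already been seen, so the levels of these genes across cell groups are given as a description. Each of the 10 symbols had 1 row in each table.

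The KPC mouse is a genetic model of pancreatic cancer whose Cre-activated alleles include LSL-Trp53R172H/+, and Cre is driven by the pancreatic Pdx-1 promoter (Pdx-1-Cre). The animals were untreated, and their ages were not given. A medium size tumor and a large size tumor were dissociated and captured as single cells on the 10x Genomics Chromium platform, and the transcripts of each cell were counted as unique molecular identifiers (UMIs). Each tumor was sequenced as 4 technical replicates that were pooled into 1 table, so each size is 1 sample and a difference between the tumors cannot be told apart from a difference between these animals or libraries.

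The medium size tumor gave 2812 cells with a median of 5456.5 UMIs per cell, and the large size tumor gave 1533 cells with a median of 1037. Both tables shared 5 cell barcodes. Clustering and fixed marker genes gave 8 epithelial-like clusters with 2331 cells in the medium size tumor and 7 with 1219 cells in the large one. The others were monocyte/macrophage-like, stromal-like and endothelial-like clusters, with a mesothelial-like cluster and 1 unnamed cluster of 64 cells in the medium size tumor. Levels are given as CPM, the UMIs of a gene per 1000000 UMIs of the cells summed. In the medium size tumor the 11 epithelial markers summed to 11535 CPM in epithelial-like and 664 CPM in macrophage-like cells, and the 11 macrophage markers to 380 and 31676 CPM. The names of cluster 7 (medium size tumor) and cluster 1 (large size tumor) rested on 3 epithelial markers each. The doublet caller Scrublet marked 0 cells in the medium size tumor and 9 in the large one, and none were removed.

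The Hippo pathway is a kinase cascade that limits organ size. Its last kinases, Lats1 and Lats2, phosphorylate the coactivators YAP (Yap1) and TAZ (Wwtr1) and keep them out of the nucleus. In the nucleus the coactivators bind TEAD factors and switch on genes such as Ctgf, Cyr61 and Ankrd1, and Amotl2 and Lats2 both restrain YAP and are among its targets. In the pancreas YAP is known for its part in tumor growth.

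TEAD factors recognise the letters GGAATG. These letters were searched on both strands (CATTCC on the other) of the 250 bases before each transcript start in RefSeq (GRCm38.p6), where 12.6% of 32851 such windows held them. Of the 10 members, 8 matched the promoter table by symbol, and 5 of the 8 held the letters (Yap1, Wwtr1, Cyr61, Ankrd1 and Amotl2), while the windows of Lats2, Birc2 and Birc3 did not. Wwtr1, Lats2 and Birc2 had 2 windows each, so this count of genes is not a like measure to the share of windows. The windows of the 3 targets whose level went with Yap1 in the cells are shown with that of Yap1 itself, read 5′ to 3′ on the strand of the gene, with the searched letters in capitals. They lie at chr9:8004597-8004846 (minus strand) for Yap1, chr3:145649986-145650235 (minus) for Cyr61, chr19:36119845-36120094 (minus) for Ankrd1 and chr9:102717554-102717803 (plus) for Amotl2. The letters begin 141 bases before the start in Yap1, 103 in Cyr61, 210 and 123 in Ankrd1 and 65 in Amotl2. A match describes the letters and not a bound site.
Yap1: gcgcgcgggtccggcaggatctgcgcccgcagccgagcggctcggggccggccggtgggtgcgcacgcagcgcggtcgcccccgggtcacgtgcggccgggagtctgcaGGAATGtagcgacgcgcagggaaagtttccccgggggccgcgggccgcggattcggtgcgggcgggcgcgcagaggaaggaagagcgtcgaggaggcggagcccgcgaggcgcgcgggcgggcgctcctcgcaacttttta
Cyr61: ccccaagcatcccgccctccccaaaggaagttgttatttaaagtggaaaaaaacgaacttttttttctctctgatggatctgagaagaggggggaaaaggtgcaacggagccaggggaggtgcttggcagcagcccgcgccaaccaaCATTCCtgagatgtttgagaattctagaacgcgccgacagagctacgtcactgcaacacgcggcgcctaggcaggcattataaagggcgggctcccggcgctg
Ankrd1: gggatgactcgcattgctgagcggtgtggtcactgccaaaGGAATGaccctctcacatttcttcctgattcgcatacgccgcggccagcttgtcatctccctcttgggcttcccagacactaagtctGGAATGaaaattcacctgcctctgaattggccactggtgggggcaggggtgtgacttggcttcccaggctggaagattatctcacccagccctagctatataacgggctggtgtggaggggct
Amotl2: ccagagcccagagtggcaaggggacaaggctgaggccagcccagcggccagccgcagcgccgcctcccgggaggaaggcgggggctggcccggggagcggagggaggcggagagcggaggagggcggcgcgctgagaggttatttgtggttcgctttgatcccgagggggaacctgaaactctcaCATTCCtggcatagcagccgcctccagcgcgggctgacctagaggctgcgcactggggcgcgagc

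Yap1 was unevenly spread over the carcinoma cells of the medium size tumor. Its level was 663 CPM (95% Poisson interval 633 to 693) in cluster 5, which had 268 cells, and 249 CPM (233 to 266) in cluster 3, which had 293 cells. In the other 6 epithelial-like clusters it lay between 34.6 CPM in cluster 4 and 54.4 CPM in cluster 1. These intervals, like all those given here, cover counting error only. Clusters 3 and 5 held 24.1% of the epithelial-like cells and 83.7% of their 3270 Yap1 UMIs. They also held 154 of the 160 cells with 5 or more Yap1 UMIs.

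Cluster 5 was itself mixed in Yap1. The median cell had 3 Yap1 UMIs, 35 of the 268 cells (13.1%) had none, and the highest had 126. Cluster 3, whose leading genes are the cell division genes Ube2c, Birc5 and Top2a, was split more widely, with 146 of 293 cells at 0 and 44 cells at 5 or more, the highest at 108. In each of the 6 remaining clusters at least 70.0% of cells had no Yap1 UMI and none had more than 8. Median depth was 8568.5 UMIs per cell in cluster 5 and 9728 in cluster 3, against 4329 to 6527 in the others, so the comparisons by Yap1 count below used cells thinned to 2500 UMIs.

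Birc2 and Birc3, which encode inhibitor of apoptosis proteins that ubiquitinate RIP kinases, had the same 2 clusters at the top. Birc2 stood at 218 CPM (201 to 236) in cluster 5 and 76.5 CPM (67.5 to 86.2) in cluster 3, and between 11.9 and 16.3 CPM in the other 6. Birc3 stood at 131 CPM (118 to 145) and 55.4 CPM (47.8 to 63.8), against 7.37 to 22.5 CPM in the others. Cluster 5 over the 6 clusters low in Yap1 gave a ratio of 14.6 for Yap1 (95% interval 13.3 to 16.2), 16.1 for Birc2 (13.6 to 19.4) and 9.31 for Birc3 (7.75 to 11.3). The clusters were built from the same cells and partly from these genes, so the ratios carry no test.

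**Figure D1:**
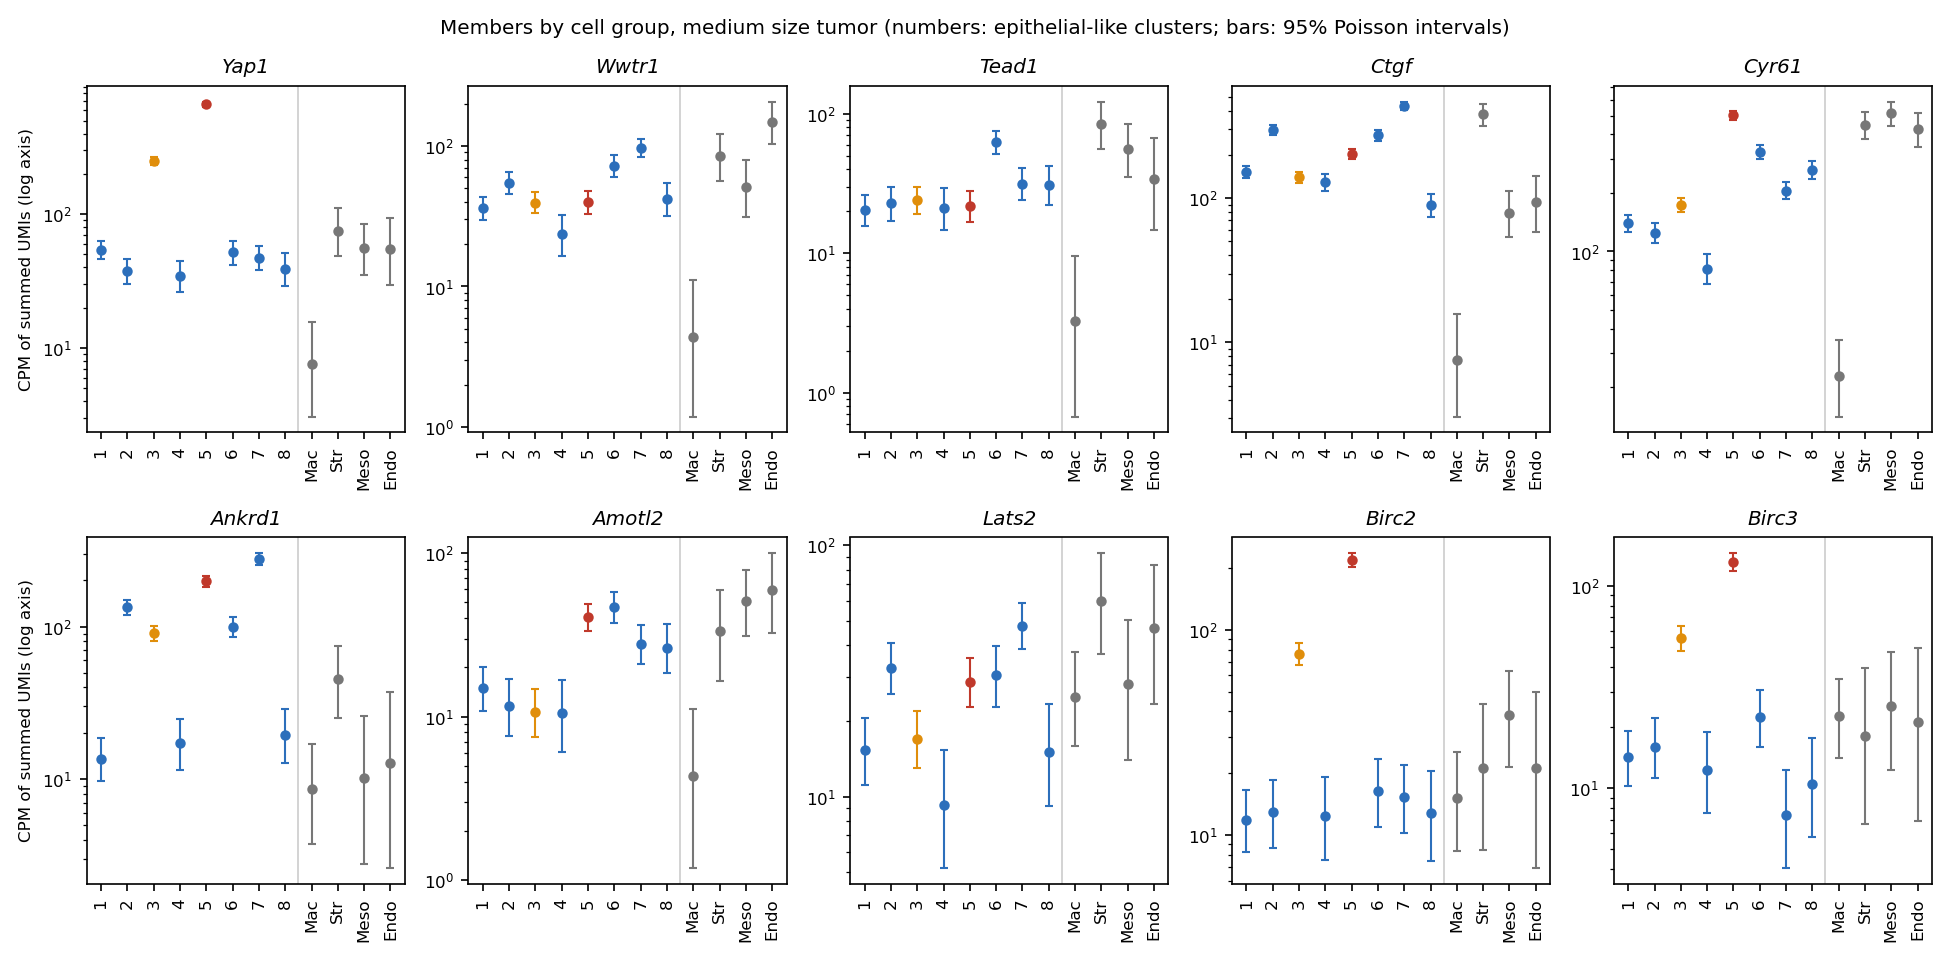
Level of each member (CPM of summed UMIs, log axis) in the 8 epithelial-like clusters (1 to 8) and the macrophage-like (Mac), stromal-like (Str), mesothelial-like (Meso) and endothelial-like (Endo) cells of the medium size tumor, with 95% Poisson intervals and the unnamed cluster left out. Yap1, Birc2 and Birc3 stand apart in clusters 5 (red) and 3 (orange), while Ctgf, Ankrd1, Wwtr1 and Lats2 are highest of the epithelial-like clusters in cluster 7, at 434, 277, 97.3 and 47.9 CPM.

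The target genes did not share 1 order over the clusters. Cyr61, which encodes a secreted matricellular protein of the CCN family, was highest in cluster 5 at 503 CPM (477 to 530), then in cluster 6 at 326 CPM and cluster 8 at 263 CPM. It was lowest in cluster 4 at 81.5 CPM. Ctgf, which encodes another CCN protein, was highest in cluster 7 at 434 CPM (405 to 465), then in cluster 2 at 296 CPM and cluster 6 at 272 CPM, and cluster 5 came next at 202 CPM (186 to 220). The Ctgf intervals of clusters 2 and 6 overlapped.

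Ankrd1, which encodes a nuclear ankyrin repeat cofactor, had 277 CPM (254 to 301) in cluster 7, 198 CPM (182 to 215) in cluster 5 and 134 CPM (119 to 150) in cluster 2. It was near 20 CPM or below in clusters 1, 4 and 8, at 13.6, 17.3 and 19.6 CPM. Amotl2, an angiomotin-like scaffold that holds YAP in the cytoplasm, was highest in clusters 6 and 5 at 46.7 CPM (37.2 to 57.9) and 40.7 CPM (33.6 to 48.9), which did not differ beyond counting error.

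Lats2 was highest in cluster 7 at 47.9 CPM (38.6 to 58.8) and lowest in cluster 4 at 9.27 CPM (5.19 to 15.3). Wwtr1 was also highest in cluster 7, at 97.3 CPM (83.8 to 112), and stood at 39.6 CPM in cluster 5 and 39.5 CPM in cluster 3. Tead1, the TEAD factor of the member list, was highest in cluster 6 at 62.5 CPM (51.4 to 75.2), and in the other 7 it lay between 20.4 and 31.6 CPM. Neither Wwtr1 nor Tead1 was highest where Yap1 was. The genes of cluster 7 are led by Inhba and Bmp2, and those of cluster 6 by Krt17 and Tnc.

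Over the CPM of the 8 clusters Ctgf ran in nearly the same order as Lats2 (Spearman rho 0.952) and close to Ankrd1 (0.762) and Wwtr1 (0.714). Cyr61 ran with Amotl2 (0.881) and hardly with Ctgf (0.143). Yap1 had a rho of 0.619 with Cyr61 and 0.095 with Ctgf. These are descriptions over 8 points that share 1 library.

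Cluster 5 was at least 1.5 times above the 6 clusters low in Yap1 for 6 of the 10 members, namely Yap1, Birc2, Birc3, Cyr61, Ankrd1 and Amotl2, where 5.67% of 6651 genes were that much higher. The ratio was 2.77 (2.59 to 2.97) for Cyr61, 2.14 (1.93 to 2.37) for Ankrd1 and 1.87 (1.48 to 2.33) for Amotl2. It was 1.15 (0.877 to 1.46) for Lats2, 0.872 (0.794 to 0.953) for Ctgf, 0.741 (0.596 to 0.901) for Wwtr1 and 0.735 (0.545 to 0.952) for Tead1, beside a median of 0.871 over all genes. Cluster 7 was the highest of the 6 in several members. Against the 5 low clusters without it the same number of members, 6, was higher, where 6.19% of 6203 genes were. Yap1, Birc2 and Birc3, fixed in advance, were again among them. The ratio was 3.45 (3.06 to 3.88) for Ankrd1, 1.38 (1.05 to 1.78) for Lats2 and 1.05 (0.950 to 1.15) for Ctgf. Cluster 3 was above the same 6 clusters in only 3 members, where 10.2% of 6856 genes were. Its raised members were those fixed in advance, Yap1, Birc2 and Birc3, at ratios of 5.51, 5.66 and 3.94. Its ratio was 0.959 (0.873 to 1.05) for Cyr61, 0.976 (0.856 to 1.10) for Ankrd1, 0.602 (0.544 to 0.662) for Ctgf and 0.5 (0.336 to 0.691) for Amotl2.

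The question whether the targets follow Yap1 from cell to cell was addressed over the 2331 epithelial-like cells. Each cell was thinned to 2500 UMIs, and the 411 cells with a Yap1 UMI left were set against the 1920 with none. Cyr61 stood at 351 CPM in the Yap1-positive cells and 178 CPM in the others, a ratio of 1.98 (1.74 to 2.24). Ankrd1 stood at 147 and 77.5 CPM, a ratio of 1.90 (1.56 to 2.30), and Amotl2 at 29.2 and 15.8 CPM, a ratio of 1.88 (1.17 to 2.85) from 30 and 76 UMIs. Ctgf stood at 218 and 223 CPM, a ratio of 0.982 (0.844 to 1.13), and Wwtr1 at 46.7 and 47.3 CPM.

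Birc2 had by far the widest gap of the members other than Yap1, at 168 against 15.2 CPM and a ratio of 11 (8.37 to 14.8). Birc3 had 115 against 19.2 CPM and a ratio of 5.98 (4.52 to 7.96). Of the 9 members other than Yap1, 5 were at least 1.5 times higher in the Yap1-positive cells, where 2.15% of 3766 genes were. Amotl2, Lats2 and Tead1 had fewer than the 200 UMIs asked of those genes, so 6 of the 9 passed that filter. With a minimum of 50 UMIs, 5.85% of 8121 genes were at least 1.5 times higher.

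Without clusters 3 and 5 the differences were smaller. Within the 6 clusters low in Yap1, 167 cells had a thinned Yap1 UMI and 1603 had none. There Cyr61 had a ratio of 1.21 (0.947 to 1.5), Ankrd1 of 0.844 (0.524 to 1.22) and Ctgf of 0.980 (0.78 to 1.2). Only Birc2 (1.88, from 9 and 50 UMIs) and Amotl2 (1.58, from 11 and 72 UMIs) reached 1.5 among the 9. Their intervals both held 1 (0.747 to 3.55 and 0.701 to 2.78). Of 3048 genes 1.61% reached 1.5. Birc2 and Amotl2 had fewer UMIs than the minimum asked of those genes, so they cannot be set beside that share. None of the 9 that passed that filter reached 1.5.

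Rank correlations over single cells put the members in nearly the same order. On counts divided by the total of the cell, Yap1 had a Spearman rho of 0.408 with Birc2, 0.340 with Birc3, 0.226 with Cyr61, 0.203 with Ankrd1 and 0.180 with Amotl2, beside a median of 0.056 over 7316 genes. Those 5 members stood above at least 98.4% of the genes. Ctgf (0.093), Lats2 (0.083), Tead1 (0.079) and Wwtr1 (0.078) stood above 79.8%, 73.5%, 70.7% and 69.6% of them. The cells share a library, and the depth-scaled Yap1 count itself had a rho of 0.326 with depth. On thinned counts, where the median over genes was -0.006, rho was 0.322 for Birc2, 0.234 for Birc3, 0.135 for Cyr61, 0.096 for Ankrd1, 0.065 for Amotl2 and 0.017 for Ctgf.

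**Figure D2:**
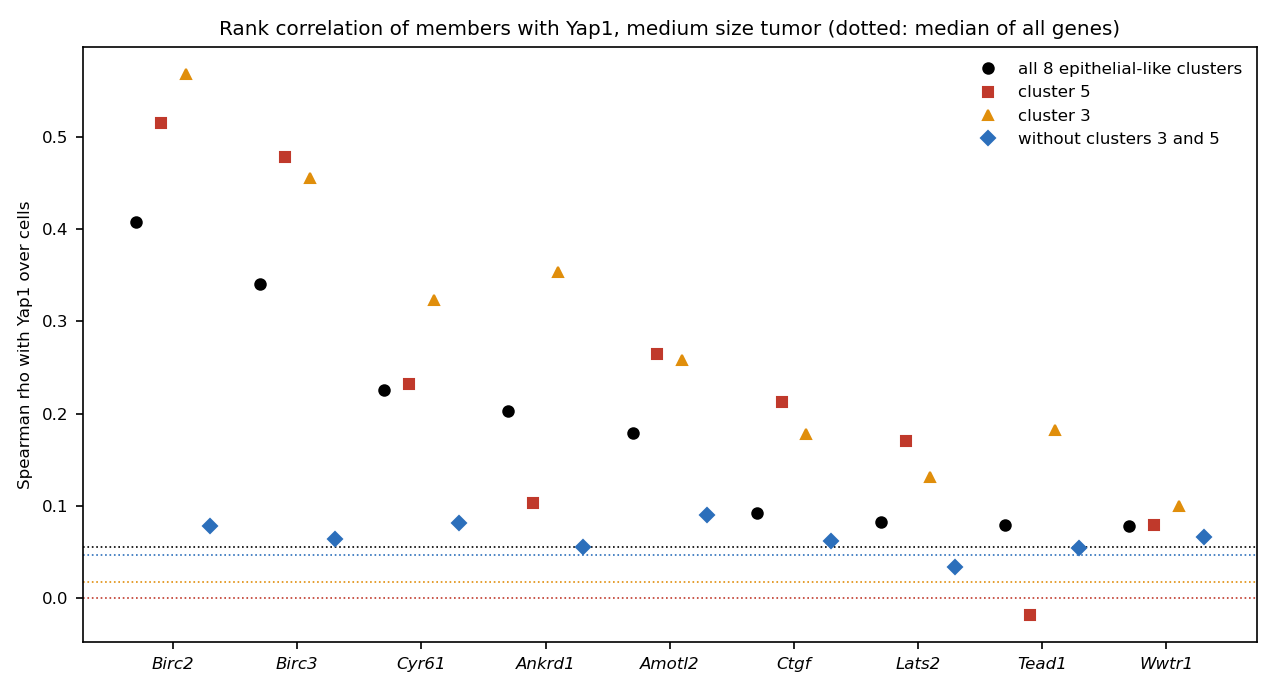
Spearman rho of 9 members with Yap1 over the cells of the medium size tumor, for all 2331 epithelial-like cells (black), for cluster 5 (red, 268 cells), for cluster 3 (orange, 293 cells) and without both clusters (blue, 1770 cells), with the median over all genes of each set dotted. The blue points all lie at or below 0.091, near their median of 0.047, while Birc2 reaches 0.515 in cluster 5 and 0.568 in cluster 3.

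Without clusters 3 and 5 none of the 9 members had a rho above 0.1, where 3.14% of 6116 genes did, and the highest was 0.091, over 1770 cells and beside a median of 0.047. On thinned counts of these cells Cyr61 had a rho of 0.003 and Ankrd1 of -0.038. Their Yap1 counts were mostly 0. Against all genes of these cells Amotl2 (0.091) stood above 93.8% and Cyr61 (0.081) above 88.4%, and the other 7 above 34.3% to 86.3%. Within single low clusters the values went both ways. In cluster 1 Ctgf had 0.133 (above 97.2% of genes), Cyr61 0.118 (95.5%) and Amotl2 0.115, and Cyr61 had 0.119 in cluster 2 and 0.149 in cluster 7 but -0.056 in cluster 4 and -0.067 in cluster 8.

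Inside cluster 5 most targets went with Yap1, and there Yap1 had a rho of -0.043 with depth. Amotl2 had a rho of 0.265 with Yap1, Cyr61 0.233, Ctgf 0.213, Lats2 0.170 and Ankrd1 0.104, beside a median of 0.000 over 1802 genes. Birc2 had 0.515 and Birc3 0.478. On thinned counts rho was 0.218 for Cyr61, 0.193 for Amotl2, 0.139 for Lats2, 0.135 for Ctgf and 0.124 for Ankrd1, beside a median of -0.009. Amotl2 and Lats2 rested on 19 and 18 thinned and 115 and 81 unthinned UMIs, and Ctgf and Ankrd1 on 136 and 129 thinned UMIs. The medians are over genes with at least 200. Ctgf, flat over all carcinoma cells, stood above 98.9% of genes inside this cluster and above 97.5% on thinned counts. Wwtr1 (0.080) and Tead1 (-0.018) did not stand out. In cluster 3 rho was 0.354 for Ankrd1, 0.323 for Cyr61, 0.258 for Amotl2 and 0.178 for Ctgf, beside a median of 0.017, and on thinned counts 0.188, 0.101, 0.052 and 0.029. The thinned values of cluster 3 came from 62, 87, 4 and 101 UMIs.

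The level by Yap1 count shows the size of this relation in cluster 5. Of its 268 cells, 98 had 0 Yap1 UMIs after thinning, 60 had 1, 69 had 2 to 3 and 41 had 4 or more. Cyr61 stood at 420 CPM (343 to 510), 313 CPM (230 to 417), 603 CPM (493 to 731) and 878 CPM (706 to 1079) in these groups. The intervals of the first and the last did not meet. Cells of cluster 5 with no Yap1 UMI were still above the 174 CPM (161 to 187) of Yap1-negative cells in the 6 low clusters.

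Ankrd1 stood at 127, 93.3, 307 and 302 CPM, a step between 1 and 2 UMIs with no further gain. Amotl2 stood at 8.16, 20, 46.4 and 58.5 CPM, from 2, 3, 8 and 6 UMIs. Ctgf stood at 147 CPM (103 to 203), 200 CPM, 249 CPM and 263 CPM (174 to 383), and its first and last intervals overlapped. Of the IAP genes, Birc2 stood at 61.2, 80.0, 261 and 644 CPM and Birc3 at 65.3, 66.7, 128 and 439 CPM.

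**Figure D3:**
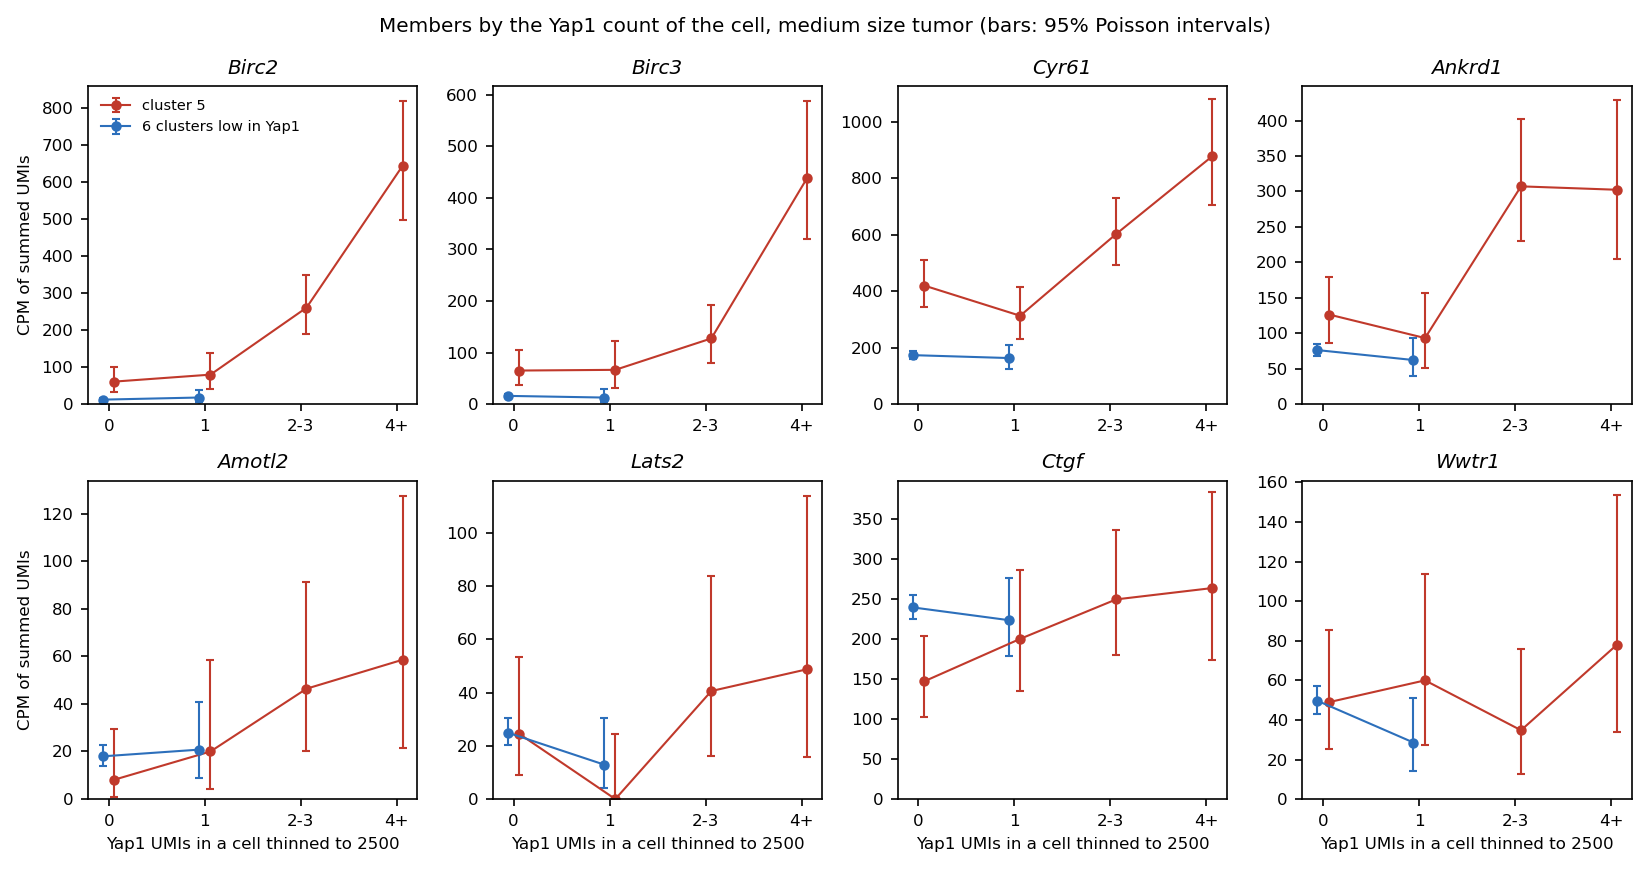
Level of 8 members (CPM of summed thinned UMIs, with 95% Poisson intervals) by the number of Yap1 UMIs in a cell thinned to 2500 UMIs, in cluster 5 (red) and in the 6 epithelial-like clusters low in Yap1 (blue, shown at 0 and 1 UMI only, since 11 of their cells had 2 to 3 and 2 had 4 or more). Birc2 climbs from 61.2 to 644 CPM and Cyr61 from 420 to 878 CPM in cluster 5, while the blue points of Cyr61 lie at 174 and 164 CPM.

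In the 6 low clusters Cyr61 stood at 174 CPM with no thinned Yap1 UMI, 164 CPM (126 to 209) with 1, 291 CPM (126 to 573) in the 11 cells with 2 to 3 and 3200 CPM (1829 to 5197) in the 2 cells with 4 or more, from 8 and 16 UMIs in the last 2 groups. Ankrd1 stood at 76.4, 62.3 and 72.7 CPM in the first 3 groups and had 0 UMIs in the last.

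In cluster 3 Birc2 had the like gradient, at 14.6 CPM in 219 cells with no thinned Yap1 UMI, 114 CPM in 42 cells with 1 and 250 CPM in 24 cells with 2 to 3. Cyr61 stood at 98.6, 85.7 and 350 CPM in these cells and Ankrd1 at 63.9, 105 and 167 CPM. In the 8 cells with 4 or more Birc2 stood at 700 CPM (383 to 1174) and Ankrd1 at 300 CPM (110 to 653), while Cyr61 stood at 150 CPM (30.9 to 438) from 3 UMIs and Ctgf at 50 CPM from 1. The cells of cluster 3 without a Yap1 UMI were at the Birc2 level of the low clusters (12.5 CPM), unlike those of cluster 5 (61.2 CPM). For Dcun1d5, a neighbour of Birc2 described next, they stood at 482 CPM (426 to 544), above the 135 CPM (124 to 147) of such cells in the low clusters and below the 1176 CPM of those in cluster 5.

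Yap1, Birc2 and Birc3 lie beside each other on chromosome 9 (GRCm38), Yap1 at chr9:7931999-8004596, Birc3 at chr9:7848699-7873186 and Birc2 at chr9:7818227-7837064, all on the minus strand. The annotation places 37 genes within 1 Mb of Yap1, of which 24 had a row of their own and 11, Yap1 included, had at least 200 UMIs in the epithelial-like cells. In cluster 5, 6 of these 11 were at least 2 times above the 6 low clusters, where 1.71% of 6651 genes were. Besides the 3 members these were Dcun1d5, a cullin neddylation factor, at 19.1 (18.2 to 20.2), Tmem123, which encodes a surface receptor, at 13.8, and Dync2h1, a dynein heavy chain of cilia, at 8.14 (6.19 to 10.9). The 3 members were fixed in advance, so only Dcun1d5, Tmem123 and Dync2h1 can be set beside that share. Of them Dync2h1 reached 200 UMIs only through cluster 5, with 151 UMIs there and 77 in the 6 low clusters. Cep126, a centrosomal gene 72 kb beyond the other end of Yap1, had a ratio of 40.1 (22.3 to 99.4) from 95 and 9 UMIs.

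Of the metalloproteinase genes between Dcun1d5 and Tmem123, 3 depended on the clusters compared. Mmp13 had a ratio of 1.89 (1.70 to 2.09), Mmp3 of 0.773 (0.496 to 1.11), Mmp10 of 0.425 and Mmp7 of 0.083. Cluster 7 alone carried most of the first 3 among the low clusters. Mmp13 stood at 187 CPM in cluster 5, 553 CPM in cluster 7 and 6.03 to 26.4 CPM in the other 5 low clusters. Mmp3 stood at 10.97, 86.8 and 0 to 1.36 CPM in the same order, and Mmp10 at 11.7, 162 and 0.618 to 5.81 CPM. Against the 5 low clusters without cluster 7, a comparison chosen after these values were seen, the ratio was 15.5 (12.7 to 19.1) for Mmp13, 14.0 (6.71 to 41.8) for Mmp3 and 4.58 (2.67 to 8.11) for Mmp10, and 9 of the 11 genes were at least 2 times higher, where 2.00% of 6203 genes were. Mmp7 stayed low at 0.071 (0.058 to 0.085), and Mmp12, with 120 UMIs and so under the minimum, had 0.885 (0.470 to 1.44) against the 6 clusters and 0.971 (0.511 to 1.61) against the 5. Arhgap42, 990 kb beyond the other end of Yap1, had 0.499 against the 6 clusters and 0.520 (0.343 to 0.729) against the 5. Of the 24 genes, 9 had 10 UMIs or fewer in the whole tumor and give no value.

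**Figure D4:**
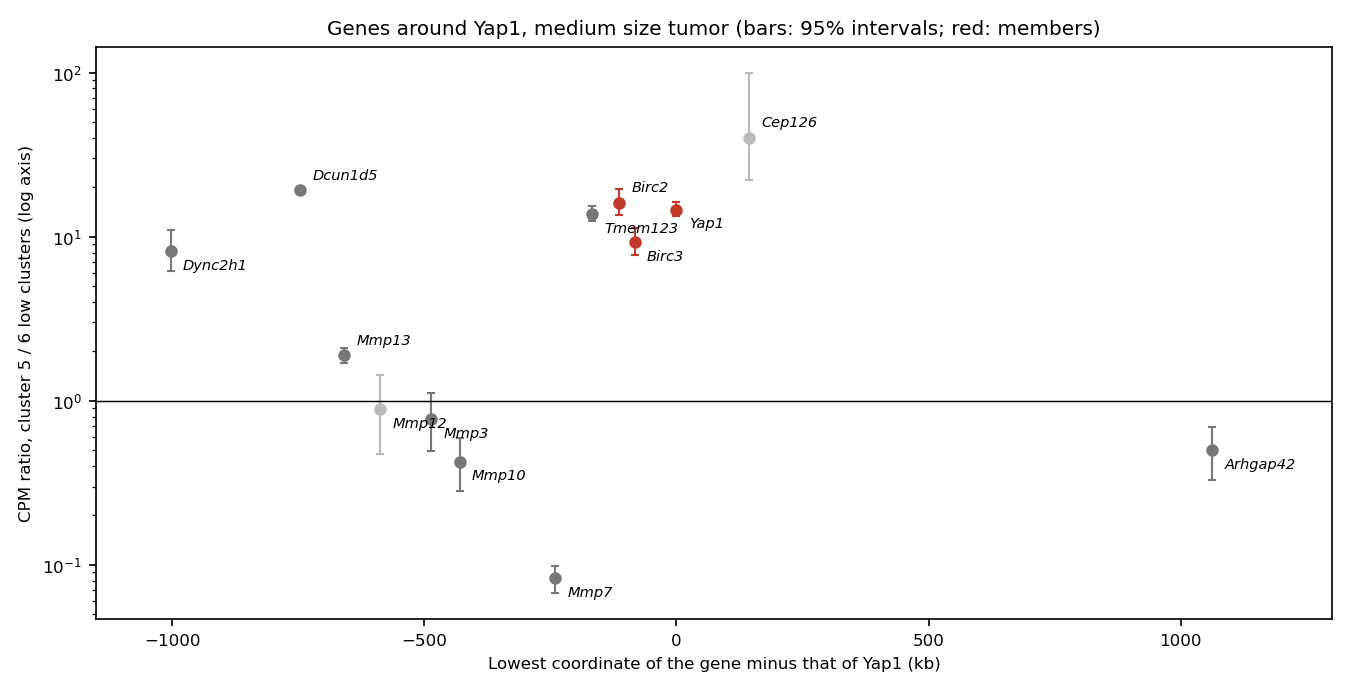
Ratio of CPM in cluster 5 to that in the 6 epithelial-like clusters low in Yap1 (log axis, 95% intervals) against the distance of each gene's lowest coordinate from that of Yap1 in kb, for genes with at least 100 UMIs in epithelial-like cells, members in red and genes under 200 UMIs in pale grey. Dync2h1, Dcun1d5, Tmem123, Birc2, Birc3, Yap1 and Cep126 lie at ratios from 8.14 to 40.1, and Mmp7, between them, at 0.083.

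The 5 genes most like Yap1 over the epithelial-like cells, among 2530 with at least 1000 UMIs, were Dcun1d5 (rho 0.428), Tmem123 (0.411), Birc2 (0.408), Tm4sf1 (0.393) and Prkg2 (0.353). The first 3 are its neighbours. Inside cluster 5 rho with Yap1 was 0.719 for Dcun1d5, 0.649 for Tmem123, 0.435 for Dync2h1, 0.360 for Cep126 and 0.282 for Mmp13, so each of these was above the 0.233 of Cyr61. Dcun1d5 stood at 1176, 1927, 3571 and 9093 CPM over the 4 groups of Yap1 count in cluster 5.

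The genes most like Ctgf were Igfbp7 (0.324), F2r (0.266), Fbln2 (0.265), Hmga2 (0.257) and Igfbp4 (0.256). Those most like Cyr61 were Hbegf (0.349), Egr1 (0.338), Dusp1 (0.335), Atf3 (0.333) and Junb (0.315), of which the last 4 are immediate early genes, a class that tissue dissociation is known to raise. All 12 immediate early genes of a fixed list had a rho above 0.1 with Cyr61 (median 0.289), where 12.2% of 7316 genes did. With Ctgf 1 of 12 did (median -0.058), where 5.22% of genes did, and with Yap1 1 of 12 (median 0.006), where 16.4% did. Over the 8 epithelial-like clusters their summed level had a rho of 0.595 with Cyr61, beside the 0.619 of Yap1 with Cyr61. Cluster 4 was lowest in both (2768 CPM summed and 81.5 CPM of Cyr61) and cluster 6 second in both (7988 and 326 CPM), while the summed level was highest in cluster 8 (13924 CPM) and 3611 CPM in cluster 5. In cluster 5, 7 of the 12 were at least 1.5 times below the 6 low clusters, where 23.4% of 6651 genes were, and none above, with Jun at 0.338 and Egr1 at 0.664. Their part in the Cyr61 levels was not tested.

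Other genes of the pathway, from lists fixed with the earlier results known, gave differences in both directions. Over all genes tested 5.67% were higher and 23.4% lower in cluster 5 than in the 6 low clusters. Of 18 Hippo kinases and regulators, 16 passed the filter in cluster 5 against the 6 low clusters, 3 were higher (Ajuba 2.13, Amotl2 1.87, Ptpn14 1.68) and 3 lower (Amot 0.413, Limd1 0.549, Nf2 0.580). Of 22 YAP/TAZ targets 17 passed, 5 were higher (the 3 members Cyr61, Ankrd1 and Amotl2 with Gadd45b at 1.70 and Ptpn14) and 3 lower (Nt5e 0.107, Rbms3 0.420, Fjx1 0.425), and their median ratio was 1.15 beside 0.871 over all genes. Of 10 YAP/TAZ partners 5 passed and only Yap1, by which the clusters were set apart, was higher. Tead2 was at 0.942 and Vgll4 at 0.805. Of 10 inhibitor of apoptosis genes 4 passed and only Birc2 and Birc3, already seen raised, were higher. Xiap was at 0.710 and Birc6 at 1.16. Over single cells, 11 of 19 targets had a rho with Yap1 above 0.1 (median 0.105), where 16.4% of 7316 genes did, against 5 of 16 Hippo genes (median 0.069) and 0 of 4 other partners (median 0.079).

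Among the other cells of the medium size tumor, the 238 macrophage-like cells were lowest in most members. Clusters 3 and 5 raise the epithelial-like levels of Yap1, Birc2 and Birc3, so each cell class below was also set against the 6 clusters low in Yap1 (45.2, 13.5 and 14.1 CPM), a comparison chosen after these values were seen. Yap1 had 7 UMIs there, 7.60 CPM (3.06 to 15.7), against 181 CPM (175 to 187) in epithelial-like cells. The macrophage-like level moved with the naming of cells, to 27.3 CPM at a clustering resolution of 0.4 and 64.2 CPM with each cell named from its own markers. A Yap1 UMI was found in 2.94% of macrophage-like and 33.4% of epithelial-like cells, or in 1.68% (exact binomial interval 0.460 to 4.25) and 17.6% (16.1 to 19.2) after thinning. The median depths were 3516 and 5980 UMIs. Ctgf had 7 UMIs, Wwtr1 4, Tead1 3 and Amotl2 4, levels at which free RNA in the droplets cannot be told apart from expression, and all 8 Ankrd1 UMIs lay in 1 cell. Of the 10 members, 9 were at least 1.5 times below the epithelial-like cells, where 42.0% of 7541 genes were. The exception was Lats2, at 25 CPM (15.8 to 37.5) against 24.2 CPM (22.0 to 26.6), and Birc3 was the nearest to it at 22.8 against 40.3 CPM. Against the 6 low clusters 7 members were lower, where 42.9% of 6371 genes were, while Birc2 stood at 15.2 CPM with an interval of the ratio that held 1 (0.603 to 1.95). Birc3 was the 1 member at least 1.5 times higher, at 1.69 (0.978 to 2.56), where 11.9% of genes were. Birc2 and Birc3 had fewer UMIs than the minimum asked of those genes, so 8 of the 10 members passed that filter. The call of Birc3 therefore cannot be set beside that share.

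The 67 stromal-like cells, which had 9 of 10 fibroblast markers, were above the epithelial-like cells in 5 members with intervals that did not hold 1. Tead1 stood at 84.3 CPM (56.0 to 122) against 27.7 CPM in epithelial-like cells, a ratio of 3.14 (2.00 to 4.45), Lats2 at 60.2 CPM with a ratio of 2.61 (1.51 to 3.89) and Cyr61 at 446 CPM with a ratio of 1.95 (1.63 to 2.28). Ctgf stood at 380 CPM (316 to 452), a ratio of 1.82 (1.5 to 2.16), and had a UMI in 59.7% of these cells. Wwtr1 stood at 84.3 CPM, a ratio of 1.78 (1.14 to 2.51). Amotl2 stood at 33.1 against 22.7 CPM from 11 UMIs, a ratio of 1.59 with 1 UMI added to each sum, and its interval held 1 (0.724 to 2.64). With Amotl2 6 of 10 members were at least 1.5 times higher, where 19.4% of 7412 genes were, and 4 were as much lower (Yap1, Ankrd1, Birc2 and Birc3), where 27.3% were. Against the 6 low clusters 8 members were higher, where 15.8% of 6232 genes were, only Ankrd1 was lower, where 28.2% were, and the ratio turned to 1.73 (1.07 to 2.48) for Yap1, 1.78 (0.619 to 3.30) for Birc2 and 1.49 (0.465 to 2.86) for Birc3. Birc2 and Birc3 had fewer UMIs than the minimum asked of those genes, so 8 of the 10 members passed that filter. Ankrd1 went the other way at 45.2 CPM, a ratio of 0.443 (0.232 to 0.687), from 15 UMIs in 5 cells. Yap1 itself was at 75.3 CPM (48.7 to 111). The epithelial markers summed to 1277 CPM in these cells, beside 11535 CPM in epithelial-like cells, and their share in the member levels was not tested.

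Mesothelial-like cells (74) had Cyr61 at 513 CPM (445 to 589), a ratio of 2.24 (1.93 to 2.57), with Amotl2 at 51.1 CPM (2.36) and Tead1 at 56.2 CPM (2.11). These were the 3 members at least 1.5 times higher, where 15.0% of 7417 genes were, and Yap1, Ctgf and Ankrd1 were the 3 as much lower, where 28.5% were. Yap1 stood at 56.2 CPM, and against the 6 low clusters its ratio turned to 1.30 (0.772 to 1.90) and that of Birc2 to 3.01 (1.56 to 4.83), so that 5 members were higher, where 12.1% of 6227 genes were, and Ctgf and Ankrd1 alone were lower, where 29.5% were. Birc2 and Birc3 had fewer UMIs than the minimum asked of those genes, so 8 of the 10 members passed that filter. Ctgf was low in mesothelial-like cells at 79.2 CPM (53.8 to 112), and Ankrd1 was at 10.2 CPM from 4 UMIs. This cluster had 5 of 10 fibroblast markers as well as its own, with a summed fibroblast level of 12687 CPM. Its epithelial markers summed to 2876 CPM, beside 11535 CPM in epithelial-like cells. How much of its member levels came from such RNA was not tested.

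Endothelial-like cells (38) had the highest Wwtr1 of the medium size tumor at 149 CPM (103 to 207), 3.12 times the epithelial-like level (2.10 to 4.26), and Cyr61 stood at 424 CPM (345 to 516). Amotl2 at 59.4 CPM (2.80) and Lats2 at 46.7 CPM (2.10) made 4 of 10 members at least 1.5 times higher, where 24.3% of 7386 genes were. In 5 (Yap1, Ctgf, Ankrd1, Birc2 and Birc3) the level was as much lower, where 17.2% of genes were. Yap1 stood at 55.2 CPM and Birc2 and Birc3 at 21.2 CPM each. Against the 6 low clusters their ratios turned to 1.31, 1.88 and 1.80, all with intervals that held 1, so that 6 members were higher, where 19.8% of 6179 genes were, and Ctgf and Ankrd1 alone were lower, where 17.9% were. Birc2 and Birc3 had fewer UMIs than the minimum asked of those genes, so 8 of the 10 members passed that filter. Over the epithelial-like cells the interval of Lats2 held 1 (0.956 to 3.49). Ctgf stood at 93.4 CPM and Ankrd1 at 12.7 CPM from 3 UMIs. The endothelial-like cluster also had 4 of 11 epithelial markers, at a summed 4245 CPM.

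The unnamed cluster, in which 10 of 11 epithelial and 8 of 11 macrophage markers were detected, had Yap1 at 82.3 CPM (54.2 to 120) and Birc3 at 54.9 CPM (32.5 to 86.7), both between the macrophage-like level and that of cluster 5. Its highest cell had 7 Yap1 UMIs.

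Cyr61 was at a like level in stromal-like, mesothelial-like and endothelial-like cells, with overlapping intervals, while Ctgf was higher in the stromal-like cells than in the other two and Ankrd1 was in all 3 below the epithelial-like 109 CPM (104 to 114). Against all 481 other cells together, epithelial-like cells were at least 1.5 times higher in 4 members, where 24.9% of 7838 genes were. The ratio was 5.46 (4.13 to 7.74) for Ankrd1, 4.20 (3.46 to 5.27) for Yap1, 2.65 (2.02 to 3.70) for Birc2 and 2.07 (1.82 to 2.39) for Ctgf. No member was at least 1.5 times lower, where 12.9% of genes were, and Cyr61 was at 1.02 (0.929 to 1.12).

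This count turned on which clusters were called epithelial-like. Without clusters 3 and 5 only Ankrd1 and Ctgf were higher, where 25.2% of 6736 genes were. Yap1 went to a ratio of 1.05 (0.852 to 1.34), at 45.2 against 42.6 CPM, and Birc2 to a log2 ratio of -0.68. Birc3, not among the 4, went to -0.97. At a clustering resolution of 1.2, 226 of the 230 cells of cluster 7 lost the epithelial-like name, and Ctgf and Ankrd1, both highest in that cluster, went to log2 ratios of -0.46 and -0.63.

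The large size tumor was shallower and held no cluster high in Yap1. Its epithelial-like cells had 77 Yap1 UMIs in 71 of 1219 cells, 39.3 CPM (31.0 to 49.1), and the highest cell had 2. In its epithelial-like clusters Yap1 lay between 32.1 and 53.9 CPM, all with overlapping intervals. Birc2 stood at 9.70 CPM (5.84 to 15.1) and Birc3 at 10.2 CPM (6.24 to 15.8). Against the medium size tumor these gave ratios of 0.220 for Yap1 (0.171 to 0.273), 0.177 for Birc2 and 0.266 for Birc3. Dcun1d5, at 157 CPM in the large size tumor, was at the 154 CPM of the 6 low clusters of the medium one.

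Of the 10 members, 3 were at least 1.5 times higher in the large size tumor (Amotl2 1.80, Wwtr1 1.79 and Tead1 1.60), where 15.7% of 7634 genes were, and 6 were as much lower, where 29.6% of genes were. Besides Yap1, Birc2 and Birc3 the lower ones were Ctgf at 24.5 against 210 CPM, a ratio of 0.119 (0.0859 to 0.155), Lats2 at 0.505 (0.304 to 0.737) and Ankrd1 at 0.647 (0.537 to 0.765). Cyr61 was at 227 and 230 CPM.

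Part of these gaps lay in which clusters each tumor held. In 2 epithelial-like clusters of the large size tumor (369 cells), 9 of 16 intestinal markers were detected, and there Wwtr1, Ctgf and Ankrd1 had 0 UMIs, which allows up to 7.99 CPM each (3 UMIs). Cyr61 stood at 18.7 CPM (7.50 to 38.4) in them, against 276 CPM (251 to 303) in the 5 clusters without intestinal markers (850 cells). Yap1 was at 40.0 CPM (22.4 to 65.9) and 39.2 CPM (30 to 50.2) in these cells. Yap1 was therefore at a like level where its targets were near or at 0 and where they were not, at a median depth of 851 and 1455.5 UMIs.

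**Figure D5:**
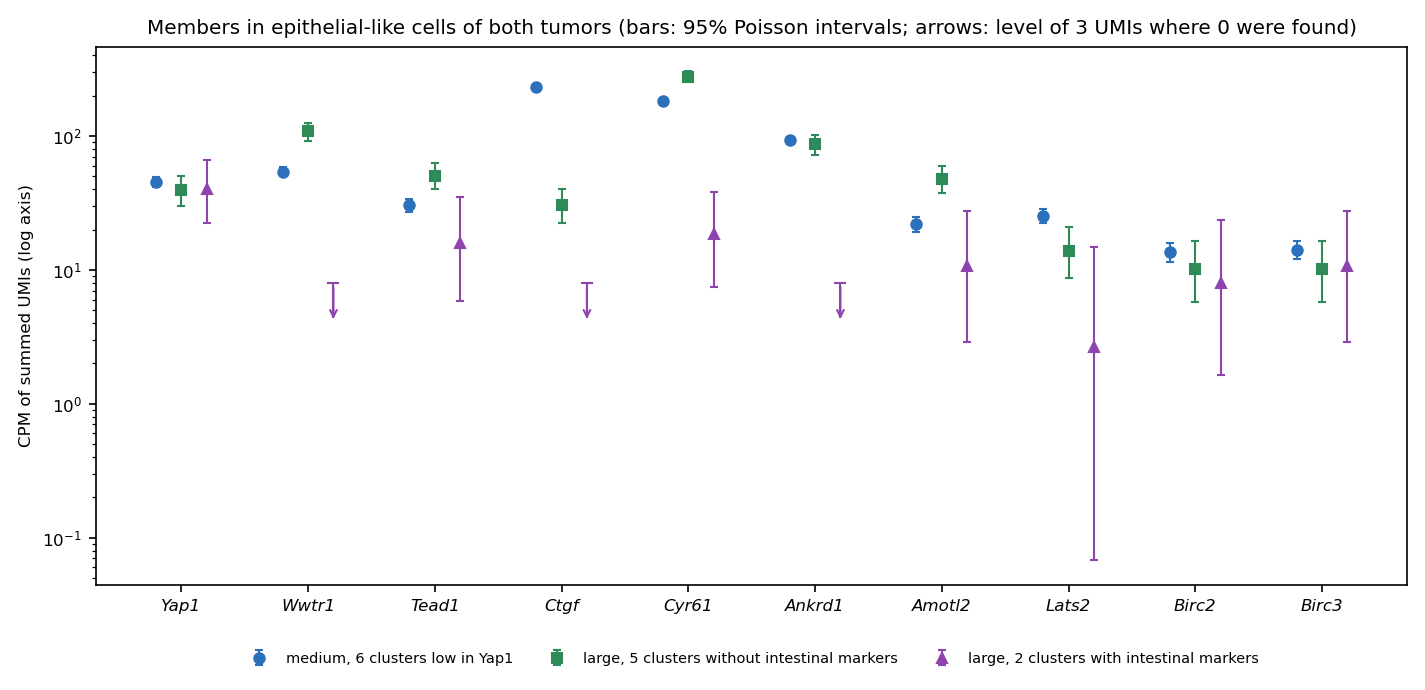
Level of each member (CPM of summed UMIs, log axis, 95% Poisson intervals) in the 6 epithelial-like clusters low in Yap1 of the medium size tumor (blue), the 5 epithelial-like clusters of the large size tumor without intestinal markers (green) and the 2 with them (purple), where an arrow starts at the level of 3 UMIs for a gene with 0. Yap1 lies between 39.2 and 45.2 CPM in all, and Ctgf at 232, 30.3 and 0 CPM.

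With the intestinal clusters and clusters 3 and 5 both left out, Yap1 was at 39.2 CPM in the large and 45.2 CPM in the medium size tumor, a ratio of 0.878 (0.654 to 1.13), and Birc2 and Birc3 were at 0.792 and 0.759 with intervals that held 1. Ctgf remained far lower at 0.133 (0.0959 to 0.173). Lats2 was at 0.573, Ankrd1 at 0.939 (0.775 to 1.11), Cyr61 at 1.52 (1.37 to 1.69), Tead1 at 1.69, Wwtr1 at 2.01 (1.68 to 2.38) and Amotl2 at 2.19 (1.65 to 2.81). In the large size tumor Wwtr1 was highest in cluster 1 at 177 CPM (141 to 221), and Cyr61 (381 CPM), Ankrd1 (135 CPM) and Amotl2 (79.8 CPM) were also highest there among the epithelial-like clusters.

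Cell by cell, the large size tumor gave little. Of the 9 members, 5 were at least 1.5 times higher in the 71 Yap1-positive cells, where 4.97% of 1367 genes were, but only Cyr61 had 200 UMIs, at a ratio of 1.36 (0.982 to 1.80). Wwtr1 had 1.83 (1.11 to 2.72), and the intervals of the other 4 held 1. These cells were not thinned, so deeper cells had more chance of a Yap1 UMI. The highest rho with Yap1 was 0.113, for Wwtr1, beside a median of 0.036, and stood above 99.0% of 1367 genes. Tead1 (0.090), Amotl2 (0.085) and Cyr61 (0.080) stood above 93.1%, 91.4% and 90.1%, and the remaining members above 14.6% to 61.2%. In counts this sparse these values were not read as a relation.

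Outside the carcinoma cells of the large size tumor, 253 macrophage-like cells had 0 UMIs of Yap1, Wwtr1, Ctgf, Ankrd1 and Amotl2, which allows up to 15.3 CPM each, at a median depth of 688 UMIs. In 50 stromal-like cells Cyr61 stood at 293 CPM (179 to 453), Tead1 at 117 CPM (50.7 to 231) and Ctgf at 29.3 CPM from 2 UMIs, against 380 CPM for Ctgf in the stromal-like cells of the medium size tumor. Ctgf was thus lower in the large size tumor in both cell classes. Ankrd1 had 0 UMIs in all 314 other cells (up to 10.7 CPM). Epithelial-like cells were at least 1.5 times above the other cells in 6 members, where 28.5% of 1547 genes were, and as much below in 3 (Lats2, Birc2 and Birc3), where 14.5% were, but only Cyr61 passed the filter of 200 UMIs, at a ratio of 2.05 (1.46 to 3.18). The 6 became 3 at a clustering resolution of 1.2 and 1 with each cell named from its own markers.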

How the data were processed

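Single-cell UMI counts of 2 KPC tumors were analysed, each sequenced as 4 technical replicates. The authors aligned the reads with Cell Ranger to mm10 and deposited counts, whole UMIs per gene and cell, as 1 table per tumor with the technical replicates pooled. No mitochondrial UMI was present in either table. Cells were clustered per tumor with Seurat 5.3.0 (counts scaled to 10000, 2000 variable genes, 10 principal components, resolution 0.8). A cluster was named when at least 3 markers of a list, each in 10% of its cells and at 25% or more of the highest cluster level, were detected. No cell was removed. Scrublet (scanpy 1.11.5) scored doublets.

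UMIs were summed over cells and given as CPM with 95% exact Poisson intervals, and shares of cells with exact binomial intervals. Ratios had 1 UMI added to each sum and exact conditional binomial intervals. A gene counted as higher or lower at 1.5-fold, and backgrounds used genes with at least 200 UMIs. A count of 0 allows 3 counts. Cells were thinned to 2500 UMIs (seed 1) in the medium size tumor and to 500 in the large. With 1 sample per tumor there was no test and no p. Intervals cover counting error only.

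The ratio procedure was tested on simulated data. Positions come from GENCODE M21 (GRCm38), where Ctgf and Cyr61 are Ccn2 and Ccn1, and promoters from RefSeq. Named were the 10 members, genes within 1 Mb of Yap1, the 5 genes most alike to Yap1, Ctgf and Cyr61, and up to 4 genes of each list at either end. Members and lists were chosen with earlier results of these data known, and Cep126 and Mmp12, under the UMI minimum, are named by position. Clusters 3 and 5 were set apart after their Yap1 levels were seen. edgeR 4.0.16 gave the TMM scaling of 1 alternative. Tead1 and Ctgf had no entry matched in the promoter table. Part of the genotype is not reported here.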

Additional observations from a re-analysis of the deposited data

How the results depend on the processing

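No paired analysis was possible because each tumor is 1 pooled table and the shared numbers of the labels mark technical replicates, so leaving out a replicate was not possible either. Of the recomputed summary values 86 stayed within 1.5 times their main count or within their main interval and 15 did not. Of the single-gene values 492 stayed within their main interval, 74 left it in the same direction or from an interval that held no change, and 7 turned.

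Leaving out clusters 3 and 5, an alternative chosen after seeing the data, moved several results. In the medium size tumor Yap1 in epithelial-like cells went from 181 to 45.2 CPM, the members higher in epithelial-like cells from 4 to 2, those higher in Yap1-positive cells from 5 to 2, those with a rho above 0.1 from 5 to 0, and those lower in the large size tumor from 6 to 2. Log2 ratios turned to -0.68 for Birc2 and -0.97 for Birc3 in epithelial-like over other cells and to -0.24 for Ankrd1 in Yap1-positive cells. Without cluster 5 alone 2 members were higher in Yap1-positive cells.

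On thinned counts 3 members had a rho above 0.1, and that of Tead1 was -0.026. On counts that were not thinned, Tead1 had -0.018 in cluster 5 alone, and in cluster 3 alone all 9 were above 0.1, which fell to Birc2, Birc3, Ankrd1 and Cyr61 on thinned counts. In the large size tumor the count with a rho above 0.1 was 1, going to 0 with Pearson's r on log values and to 2 with the class of each cell taken from its own markers.

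At resolution 1.2 the epithelial-like Yap1 level of the medium size tumor was 196 CPM, the log2 ratios of Ctgf and Ankrd1 over other cells were -0.46 and -0.63, and 3 members rather than 6 were higher in epithelial-like cells of the large size tumor. The per-cell class gave 1 in the large size tumor. The macrophage-like Yap1 level of the medium size tumor was 27.3 CPM at resolution 0.4 and 64.2 CPM with the per-cell class, against 7.60 CPM. The cause was not tested, other than for cluster 7 at resolution 1.2. The 6 raised genes around Yap1 were 6 under resolution 0.4, 20 principal components and clustering without the members, and 9 at resolution 1.2, where cluster 7 had lost the epithelial-like name, and 9 without cluster 7 in the comparison, an alternative chosen after seeing the data.

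Depth limits the comparisons between cells of the large size tumor, where 9 of the 10 members had under 200 UMIs.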
